A study of Mus musculus with 10 samples.

Results

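Cytochromes P450 (P450s, gene symbols starting with *Cyp*) are haem enzymes that use molecular oxygen to hydroxylate or epoxidise steroids, sterols, fatty acids, vitamins and drugs. The 100 entries described here were all entries of the deposited gene table whose symbol has the form of a *Cyp* family, subfamily and gene number, except for *Cyp26a1* and *Cyp26b1*, which were left out. They were 100 of 62322 entries, of which 25233 carried a gene symbol. Among them were 4 entries named as pseudogenes, 1 antisense entry (*Cyp4x1os*) and 2 entries in which the gene was joined to another symbol (*Cyp2d11* with *Mir7684*, and *Cyp2c66* with *Cyp2c65*). RNA was sequenced from sorted hepatic stellate cells (HSCs) of male C57BL/6J mice, 5 libraries of hypertrophied HSCs (hypHSCs) and 5 of quiescent HSCs (qHSCs). The hypHSCs came from mice fed CDAHFD, a high-fat diet without choline and with defined amino acids, for 13 weeks (hypHSC 1 and 2, aged 19 weeks) or 12 weeks (hypHSC 3, 4 and 5, aged 18 weeks). The qHSCs came from mice on standard diet aged 36 weeks (qHSC 1, 2 and 5) or 34 weeks (qHSC 3 and 4). Livers on CDAHFD were digested with more enzyme, and hypHSCs were sorted on green and qHSCs on blue autofluorescence, so that diet, age, digestion and gate cannot be told apart in this comparison. The labels do not tie libraries to single mice, so p-values measure the spread between these preparations, which may in part be technical.

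In the liver, most P450s of the CYP1, CYP2 and CYP3 families are known from hepatocytes, where they sit in the endoplasmic reticulum, take electrons from P450 oxidoreductase (*Por*) and convert drugs and lipids. P450s of cholesterol and steroid metabolism include mitochondrial enzymes such as CYP27A1, which take electrons through ferredoxin. HSCs store retinoids and are not the classical site of drug-metabolising P450s.

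The values are normalized counts, that is, reads per gene divided by a size factor for each library. Reads on genes with a symbol numbered 30534719 to 43283589 in hypHSCs and 35640104 to 47317028 in qHSCs, and a value of 3 reads or fewer, the floor of detection, corresponds to 2.49 to 4.54 normalized counts in hypHSCs and 2.25 to 2.72 in qHSCs. This limit covers counting error only. The label of the cells was compared with marker genes. Summed over 10 quiescent HSC markers (*Lrat*, *Reln*, *Hgf*, *Colec10*, *Ecm1*, *Des*, *Gfap*, *Ngfr*, *Rgs5* and *Dcn*), normalized counts were 29985 to 56537 in hypHSCs and 1245539 to 2114005 in qHSCs, and all 10 were lower in hypHSCs. In the libraries labelled hypHSC, *Gfap* was at 0 in hypHSC 4 and hypHSC 5 and *Ngfr* in hypHSC 5. Summed over 9 macrophage markers (*Adgre1*, *Csf1r*, *Cd68*, *Lyz2*, *Fcgr1*, *Mertk*, *C1qa*, *C1qb* and *C1qc*), they were 964529 to 1356591 in hypHSCs and 4787 to 91872 in qHSCs, and all 9 were higher in hypHSCs. The macrophage sum exceeded the quiescent HSC sum in every hypHSC library and in no qHSC library, which goes against a plain stellate cell profile, and the names hypHSC and qHSC stand below for the labels of the libraries. qHSC 1 and qHSC 4 held more macrophage marker counts (42601 and 91872) than the other qHSC libraries, and their Kupffer cell marker sums (19247 and 44861) were within or above the range of hypHSCs (18347 to 34538). Hepatocyte marker sums (15 of 16 markers in the table) overlapped, at 15320.3 to 235149 in hypHSCs (median 40241) and 33702 to 124062 in qHSCs (median 88062). hypHSC 5 was the highest of all libraries and hypHSC 3 the lowest, and *Apoa2* alone held 135760 of the counts of hypHSC 5. Of these 15 genes 1 was called lower in hypHSCs (*Apob*) and none higher. Their log2 fold changes ran from -1.87 to 0.23 and were above 0 only for *Ahsg* and *Ambp*. The hepatocyte marker ratios and covariate below rest on this sum. Neutrophil marker sums were 1454 to 5814 in hypHSCs and 0 to 109.5 in qHSCs, and cholangiocyte marker sums 468 to 2877 in hypHSCs and 4.72 to 56.1 in qHSCs. Sinusoidal endothelial marker sums were 688 to 1397 in hypHSCs and 1734 to 3617 in qHSCs (2 genes higher and 2 lower of 6 tested), and lymphocyte marker sums 15.5 to 507 in hypHSCs and 10.2 to 159 in qHSCs (none of 3 tested called). Of 6 Kupffer cell markers 3 were higher in hypHSCs and none was called lower. *Timd4* went the other way without a call, at 2.10 to 39.1 normalized counts in hypHSCs and 5.96 to 1720 in qHSCs. In such bulk samples, fewer cells of a type and less RNA per cell cannot be told apart.

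P450s share a haem-binding loop near the carboxyl end in which a cysteine holds the haem iron. In GENCODE transcripts, 90 of the 96 member symbols with a coding canonical transcript held a codon stretch of the form phenylalanine, 2 residues, glycine, 1 residue, a basic or hydroxyl residue, 1 residue, cysteine, 1 residue, glycine. *Cyp2c65* and *Cyp2c66*, which share an entry, were counted separately here. These 90 stretches were 72 distinct sequences of 30 bases, and the cysteine codon was TGC in 55 and TGT in 35. The stretches of the members that carry the results are shown because they mark each gene as a P450 and show how alike the members are in these 30 bases. They do not show whether reads of 59 bases can be told apart. The cysteine codon is in capitals, and each is written 5′ to 3′ on the gene's strand:
*Cyp4f18*: ttctcggctgggcccaggaacTGCatagga
*Cyp4f16*: ttttctgccgggcccaggaacTGCatagga
*Cyp4v3*: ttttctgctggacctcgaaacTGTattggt
*Cyp4b1*: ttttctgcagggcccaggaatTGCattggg
*Cyp27a1*: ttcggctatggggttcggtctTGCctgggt
*Cyp2d22*: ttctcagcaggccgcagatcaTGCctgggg
*Cyp2j6*: ttctcaatgggaaagcgagctTGCctggga
*Cyp2j9*: ttctcaatgggaaaacgtgctTGTcttgga
*Cyp2c29*: ttttcaacaggaaaacggattTGTgctgga
*Cyp2e1*: ttttctgcaggaaagcgcgtgTGTgttgga
*Cyp3a11*: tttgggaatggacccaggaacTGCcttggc
*Cyp3a41a*: tttggaattggacccaggaacTGCattggc
*Cyp3a41b*: tttggaattggacccaggaacTGCattggc
On GRCm39, the stretch of *Cyp4f18* lies at chr8:72742569-72742920 on the minus strand and is split between exons 12 and 13, that of *Cyp27a1* at chr1:74776479-74776508 on the plus strand within exon 8, and that of *Cyp3a11* at chr5:145795615-145795644 on the minus strand within exon 12. Of 30 bases, *Cyp4f18* shared 27 with *Cyp4f16*, 24 with *Cyp4b1*, 21 with *Cyp4v3* and 15 with *Cyp27a1*. *Cyp2j6* and *Cyp2j9* shared 26, *Cyp3a11* and *Cyp3a41a* shared 27, and *Cyp3a41a* and *Cyp3a41b* were identical. *Cyp20a1*, *Cyp39a1* and *Cyp8b1*, all described below, held no stretch of this form in their canonical transcripts.

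Of the 100 members, 87 were above the floor in at least 1 library, 37 were above it in all 10 libraries, and 12 had no read at all. A filter for low values (10 or more normalized counts in 5 or more libraries) was passed by 69 members, which were tested together with all other genes of the table that passed this filter, 14630 in all. 1 member, *Cyp4b1-ps2*, passed through qHSCs alone. A gene was called at an adjusted p of at most 0.05 (limma, Benjamini-Hochberg over all genes tested) and a log2 fold change of 1 or more in either direction, with fold changes taken on log2(normalized count + 1), hypHSCs over qHSCs. The added 1 shrinks the change of low genes. Where only some libraries of a group are near the floor, the change can instead be larger than with DESeq2 or edgeR, as for *Cyp46a1* below. 25 members fell in hypHSCs and 2 rose. The 25 lower members were 36.2% of the 69 tested, where 21.7% of all genes tested were called lower, and the 2 higher members, *Cyp4f18* and *Cyp4v3*, were 2.90%, where 17.8% of all genes were called higher. The median log2 fold change was -1.54 over the tested members and -0.20 over all genes, and 55 of the 69 members (79.7%) had a negative fold change, against 56% of all genes. The spread was larger for the P450s than elsewhere, with a median SE of 0.91 on the log2 scale against 0.41 over all genes. Values of the groups did not overlap for 14 members, 20.3% of those tested, where the groups of 39.5% of all genes did not overlap. All 14 were called, and 33% of all genes tested were both called and without overlap. In 12 of them every qHSC library was higher, where 22% of all genes had this order, and in 2 every hypHSC library was higher, where 17.6% had it. *Cyp4b1-ps2*, whose order was fixed by the filter, is counted among the 25, the 14 and the 12, and without it 24 of 68 members were lower (35.3%), 13 did not overlap and 11 had every qHSC library higher. For each of these 13 the exact two-sided permutation test gave p = 0.00794 before adjustment, the smallest that 5 against 5 libraries can give. Any gene without overlap gets this value, so it adds nothing to the lack of overlap. When each library was left out in turn, 19 of the 27 calls held every time and 8 were lost without at least 1 library.

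**Figure D1:**
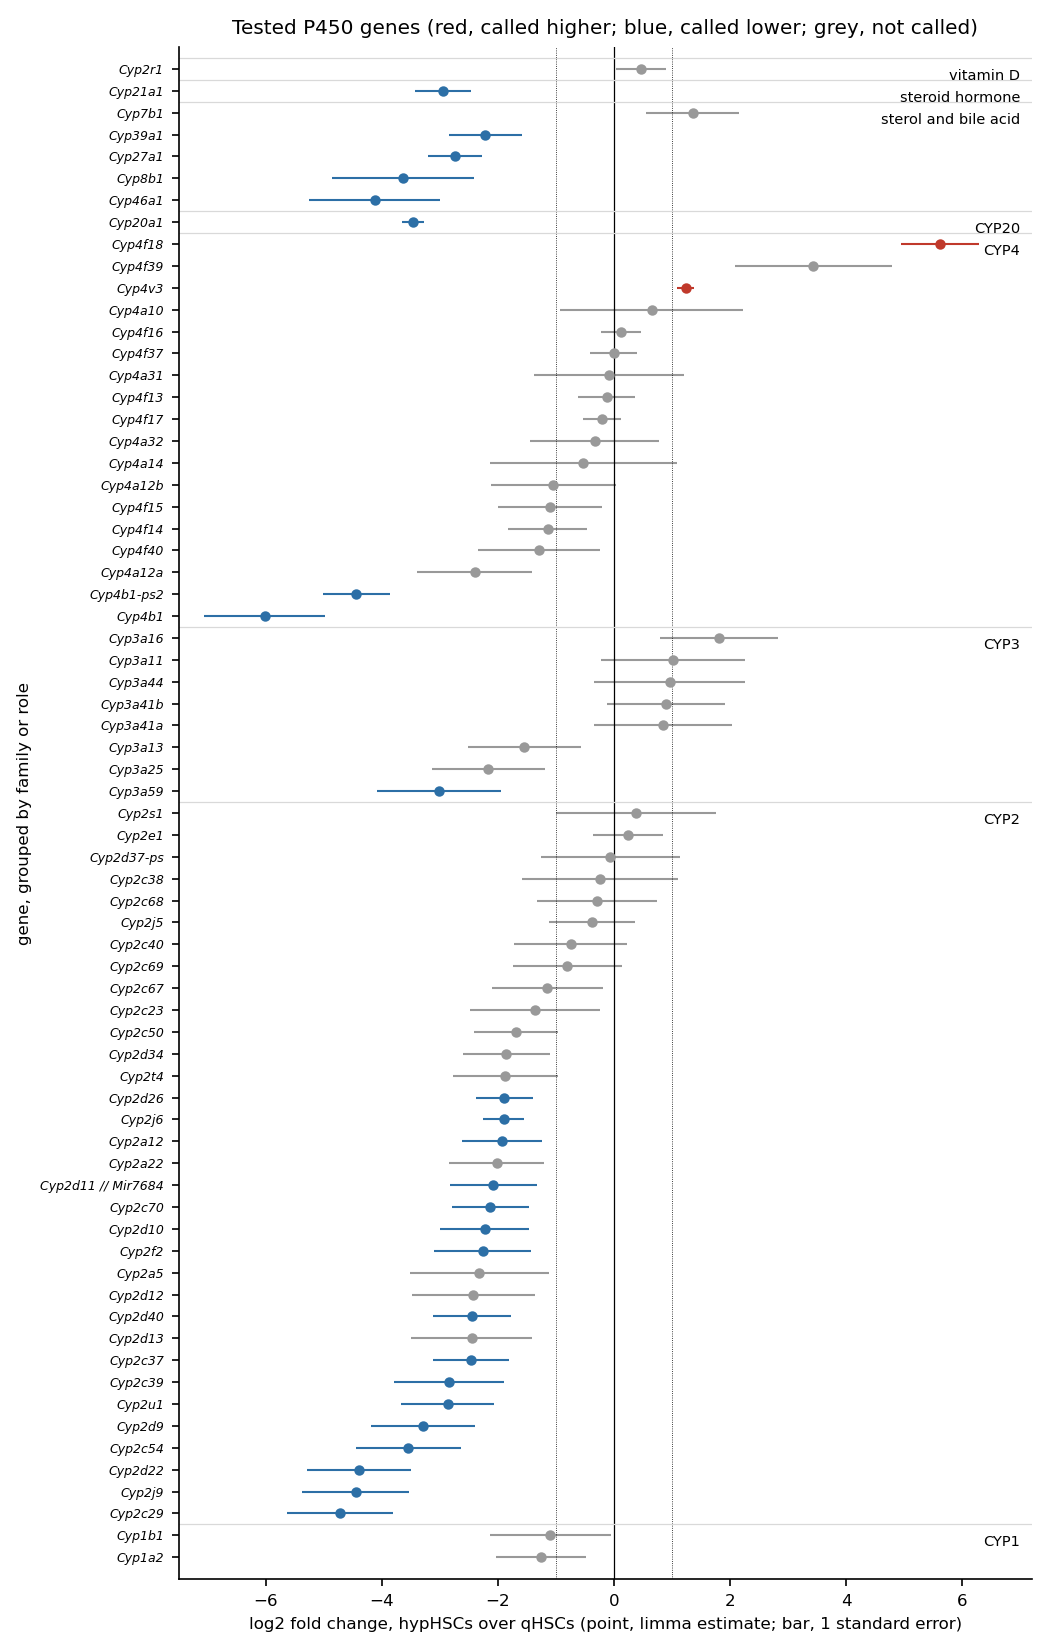
Log2 fold change (x axis, hypHSCs over qHSCs; point, limma estimate; bar, 1 SE) of the 69 tested P450 genes (y axis), grouped by family or role. The 25 genes called lower are blue, the 2 called higher, *Cyp4f18* and *Cyp4v3*, are red, and the 42 not called are grey; 5 of the 8 tested CYP3 genes lie above 0.

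Counted per length, as FPKM (read pairs scaled by exon length and by the reads on genes, mean ± SD, n = 5 libraries), the order of the P450s differed between the groups. In qHSCs, *Cyp20a1* stood at 142 ± 11.2, *Cyp2e1* at 84.6 ± 59.2 and *Cyp27a1* at 32.5 ± 4.36. These neighbours in the order overlapped within 1 SD, whereas *Cyp27a1* was clear of the next, *Cyp2c29*, at 11.4 ± 8.2. In hypHSCs, *Cyp2e1* stood at 72 ± 42.6, *Cyp4f18* at 32.2 ± 6.36, *Cyp3a11* at 16.5 ± 22.6 and *Cyp4v3* at 16.1 ± 1.91, neighbours that overlapped within 1 SD, and *Cyp20a1* followed at 10.3 ± 2.47, below *Cyp4v3* by more than their SDs. A mean of at least 1 FPKM was reached by 23 members in hypHSCs and 41 in qHSCs. Summed over all 100 members, normalized counts were 21159.9, 22304, 14656, 29349 and 53540.3 in hypHSC 1 to 5 and 56254, 29387, 30079, 53053 and 45574 in qHSC 1 to 5. Only hypHSC 5 reached the range of qHSCs, with 26714 counts on CYP2 and 15975 on CYP3 genes.

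**Figure D2:**
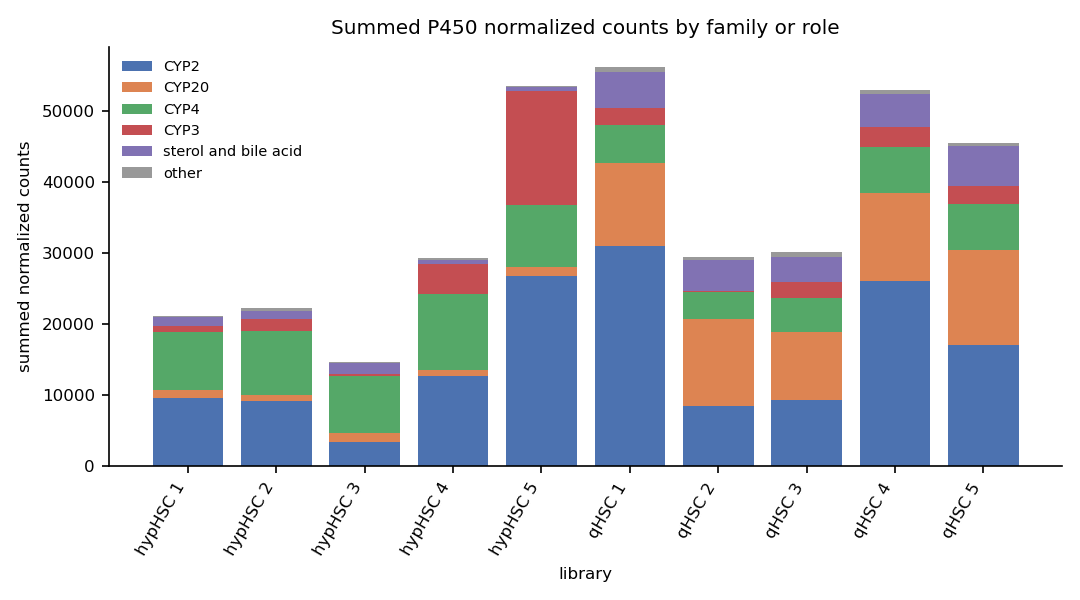
Summed normalized counts (y axis) of the 100 P450 genes in each library (x axis), stacked by family or role. The *Cyp20a1* segment is 9593 to 13366 counts in qHSCs and 766 to 1343 in hypHSCs, the CYP4 segment is larger in every hypHSC library (8091 to 10656) than in any qHSC library (3785 to 6518), and the CYP3 segment reaches 15975 in hypHSC 5.

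The CYP4 family hydroxylates fatty acids and eicosanoids at or near the end of the chain. Of its 23 members 18 were tested, of which 2 rose, 2 fell and 14 were not called. Of all genes tested, 17.8% rose and 21.7% fell. *Cyp4f18* (chromosome 8, 72742326 to 72763472, GRCm39 as in the deposited table, like all gene positions here), which is known to hydroxylate the neutrophil attractant leukotriene B4 in myeloid cells, held 2700.4, 3010.5, 2431, 4509 and 3188 normalized counts in hypHSC 1 to 5 and 206, 13.6, 46.5, 207 and 33 in qHSC 1 to 5. Every hypHSC library was above every qHSC library, and within qHSCs the values of qHSC 1 and qHSC 4, the libraries with the most macrophage marker counts, were highest. The log2 fold change was 5.61 ± 0.67 (SE, limma, adjusted p = 4.9e-05), and it lay between 5.08 and 6.04 when any 1 library was left out. All 9 macrophage markers and the 3 neutrophil markers that were tested also rose in hypHSCs, with *S100a8* at 1050.2 to 4294 against 0 to 96.7 normalized counts, whereas *Ly6g*, a defining neutrophil marker, was at 0 to 13.6 against 0 to 5.13. The part of these cells in the rise of *Cyp4f18* was not tested. Of its exon bases 17.6% are also covered by other genes. Its entry overlaps that of *Zfp961*, which held 533 ± 89.5 normalized counts in hypHSCs and 521 ± 42.8 in qHSCs (SD, n = 5 libraries each).

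*Cyp4v3* (chromosome 8, 45757981 to 45786233), the mouse counterpart of the fatty acid hydroxylase mutated in a human retinal dystrophy, held 2642, 2713, 2613, 2503 and 2623 normalized counts in hypHSC 1 to 5 and 1186, 1024, 914, 1182 and 1304 in qHSC 1 to 5. The groups did not overlap, and the hypHSC libraries lay close together at 2619 ± 75.7 against 1122 ± 153 (SD, n = 5 libraries each). Its log2 fold change was 1.23 ± 0.14 (SE, limma, adjusted p = 4.19e-05). Scaling the libraries to the same total left it at 0.88, under the threshold, and scaling on *Hprt*, *Pgk1* and *Actb* left it at 0.29, where the median of all genes shifted by -0.35 and -0.94. In contrast to *Cyp4f18*, values in qHSC 1 and qHSC 4 (1186 and 1182) were within those of the other qHSC libraries (914 to 1304).

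The promoters of both genes are shown because these were the 2 members that rose. The RefSeq table used, on the GRCm38.p6 build, held promoters of 74 member symbols (84 windows of 300 bases, from 250 before to 50 after the start). 6 short motifs were searched on both strands. The TATA box was searched as TATAAA. The core of PU.1, a factor of myeloid cells, was searched as GAGGAA, and that of the aryl hydrocarbon receptor as GCGTG. For the liver factors, the half-site of nuclear receptors was searched as AGGTCA, the core of HNF4 as CAAAGT and the half-site of HNF1 as GTTAAT. The 250 bases before the start follow, 5′ to 3′ on the gene's strand, with motif matches in capitals, at chr8:72009627-72009876 and chr8:45333164-45333413, both on the minus strand:
*Cyp4f18*: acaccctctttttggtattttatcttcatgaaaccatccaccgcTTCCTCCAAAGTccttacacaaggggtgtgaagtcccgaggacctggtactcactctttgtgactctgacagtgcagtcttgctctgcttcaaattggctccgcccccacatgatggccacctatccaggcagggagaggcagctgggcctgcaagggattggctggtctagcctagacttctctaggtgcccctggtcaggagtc
*Cyp4v3*: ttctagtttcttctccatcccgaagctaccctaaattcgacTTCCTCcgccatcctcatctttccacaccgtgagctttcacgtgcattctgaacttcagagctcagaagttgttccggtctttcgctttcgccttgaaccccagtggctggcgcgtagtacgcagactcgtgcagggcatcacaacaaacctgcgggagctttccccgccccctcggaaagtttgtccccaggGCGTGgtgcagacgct
In *Cyp4f18*, a PU.1 core on the minus strand at -206 from the start adjoins an HNF4 core at -200. In *Cyp4v3*, a PU.1 core lies on the minus strand at -209 and an aryl hydrocarbon receptor core at -16. The PU.1 core was found in 19.1% of member windows and 28.3% of all 32851 windows, and the aryl hydrocarbon receptor core in 19.1% and 32.4%. The promoter of *Cyp4f18* held 3 CpGs and that of *Cyp4v3* 17, where the median was 2 over the members and 7 over all windows.

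*Cyp4f39*, which makes very long hydroxylated fatty acids for skin ceramides, held 171, 121, 60.7, 70.3 and 0 normalized counts in hypHSC 1 to 5 and 0, 10.2, 2.36, 8.56 and 0.75 in qHSC 1 to 5. Values were above 60 in hypHSC 1 to 4 and at 0 in hypHSC 5, and the log2 fold change of 3.43 ± 1.35 (SE, limma, adjusted p = 0.0549) was not called. It was called higher without hypHSC 5, with a pseudocount of 4, with the replicate block, and by DESeq2 and edgeR. The other *Cyp4f* genes of the cluster on chromosome 17 metabolise eicosanoids and fatty acids, and none was called. *Cyp4f16* held 1145, 1373, 1344, 1091 and 349 normalized counts in hypHSC 1 to 5 and 1016, 775, 887, 904 and 822 in qHSC 1 to 5, at a log2 fold change of 0.13 ± 0.34 (SE, limma, adjusted p = 0.781). hypHSC 5 stood below the other 9 libraries. *Cyp4f13* had a log2 fold change of -0.13 ± 0.49 (SE, limma, adjusted p = 0.844), *Cyp4f17* of -0.20 ± 0.32 (SE, limma, adjusted p = 0.626) and *Cyp4f37* of -0.01 ± 0.40 (SE, limma, adjusted p = 0.989). The direction of *Cyp4f16*, *Cyp4f13*, *Cyp4f17* and *Cyp4f37* changed under at least 1 alternative each, among them scaling to the same total for *Cyp4f16*. Of the exon bases of *Cyp4f37*, 19.5% are covered by other genes.

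*Cyp4b1*, which acts on short and medium-chain fatty acids and on furans, lies in the *Cyp4a* and *Cyp4b* cluster (chromosome 4, 115481895 to 115504918) and had the lowest fold change of the members. It held 71.4, 64.2, 20.0, 0 and 3.02 normalized counts in hypHSC 1 to 5 and 763, 843, 644, 965 and 1123 in qHSC 1 to 5. Every qHSC library was above every hypHSC library, and hypHSC 4 and hypHSC 5 were at or near 0. It fell by 6.02 ± 1.05 on the log2 scale (SE, limma, adjusted p = 0.000695). Its pseudogene *Cyp4b1-ps2* was at or under the floor of 3 reads in all 5 hypHSC libraries and at 26.8 to 48 normalized counts in qHSCs, at least 10.5-fold lower in hypHSCs against a floor of 3 reads per library. All of its exon bases are covered by another annotated gene, so that its reads cannot be assigned to it alone. The *Cyp4a* genes, fatty acid hydroxylases that hepatocytes induce through PPARα, were not called. *Cyp4a10* held 144, 104, 60.7, 319 and 702 normalized counts in hypHSC 1 to 5 and 254, 0, 246, 625 and 557 in qHSC 1 to 5, highest in hypHSC 5 and at 0 in qHSC 2, with a log2 fold change of 0.65 ± 1.58 (SE, limma, adjusted p = 0.756). *Cyp4a12a* had a log2 fold change of -2.40 ± 1.0 (SE, limma, adjusted p = 0.0668) and was called lower without hypHSC 5 (-3.17) or without qHSC 2 (-3.03). *Cyp4a12b* had a log2 fold change of -1.04 and *Cyp4a32* of -0.33. *Cyp4a12a* and *Cyp4a12b* shared 39.8% and 44.9% of their 59-base stretches, the read length, with other genes, most often each other, and counts may be split between them.

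*Cyp20a1*, a P450 with no established substrate (chromosome 1, 60382459 to 60427218), had the highest mean level per length in qHSCs, within 1 SD of *Cyp2e1*. It held 1213, 766, 1217, 928 and 1343 normalized counts in hypHSC 1 to 5 and 11717, 12295, 9593, 12437 and 13366 in qHSC 1 to 5. The lowest qHSC library was above the highest hypHSC library, and the 5 libraries of each group lay close together. The log2 fold change was -3.46 ± 0.18 (SE, limma, adjusted p = 1.8e-07), and between -3.54 and -3.34 when any 1 library was left out. Per 1000 hepatocyte marker counts, *Cyp20a1* stood at 5.71 to 79.5 in hypHSCs and 94.4 to 365 in qHSCs, which do not overlap either. All 10 quiescent HSC markers fell beside it, by 4.68 to 8.39 on the log2 scale, and their part was not tested. Its promoter is shown beside that of *Cyp2c29*, a P450 known from hepatocytes that also fell, since the windows differ in make-up. They lie on the plus strand of GRCm38.p6 at chr1:60343050-60343299 and chr19:39286835-39287084, with matches to the 6 motifs in capitals:
*Cyp20a1*: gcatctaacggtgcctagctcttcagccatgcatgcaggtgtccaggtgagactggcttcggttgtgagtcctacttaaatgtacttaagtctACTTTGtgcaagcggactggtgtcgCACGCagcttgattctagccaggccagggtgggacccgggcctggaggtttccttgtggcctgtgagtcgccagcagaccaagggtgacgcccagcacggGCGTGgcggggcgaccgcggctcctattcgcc
*Cyp2c29*: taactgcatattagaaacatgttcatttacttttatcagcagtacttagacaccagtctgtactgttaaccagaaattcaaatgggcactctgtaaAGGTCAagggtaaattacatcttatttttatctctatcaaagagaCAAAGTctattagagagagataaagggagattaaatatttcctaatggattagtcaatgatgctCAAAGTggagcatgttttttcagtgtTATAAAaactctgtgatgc
The *Cyp20a1* window held 20 CpGs and no TATA box, with aryl hydrocarbon receptor cores at -132 and -32 and an HNF4 core at -157. The *Cyp2c29* window held 2 CpGs, a TATA box at -19, HNF4 cores at -109 and -45 and a nuclear receptor half-site at -154. Over all members, a TATA box was found in 38.1% of windows and an HNF4 core in 42.9%, where 13.6% and 14.4% of all windows held them. The nuclear receptor half-site was found in 26.2% against 16.3%, and the HNF1 half-site in 13.1% against 7.1%. Each window was counted separately in the member shares. Some genes, such as *Cyp3a25*, had several windows, and *Cyp3a41a* and *Cyp3a41b* held the same motifs at the same positions.

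P450s of sterol and bile acid metabolism numbered 6, of which 5 were tested, 4 fell and none rose, where 21.7% of all genes fell. *Cyp27a1*, the mitochondrial sterol 27-hydroxylase that starts the acidic pathway of bile acid synthesis (chromosome 1, 74752485 to 74777056), held 707, 853, 1306, 200.4 and 257 normalized counts in hypHSC 1 to 5 and 3859, 3741, 2813, 3048 and 4333 in qHSC 1 to 5. All hypHSC libraries were below all qHSC libraries, and hypHSC 4 and hypHSC 5 were lowest. Its log2 fold change was -2.73 ± 0.46 (SE, limma, adjusted p = 0.000595). Of its exon bases 32.8% are covered by other genes in the GENCODE annotation, where *Prkag3* shares the most 59-base stretches with it. In the deposited annotation its entry overlaps no other entry. *Prkag3* held 3.23 ± 7.23 normalized counts in hypHSCs and 35.3 ± 29.4 in qHSCs (SD, n = 5 libraries each), far fewer than *Cyp27a1*. *Cyp39a1*, which hydroxylates 24-hydroxycholesterol, held 214, 144, 113, 12.6 and 92.3 normalized counts in hypHSC 1 to 5 and 382, 343, 379, 326 and 593 in qHSC 1 to 5. The groups did not overlap, and the log2 fold change was -2.22 ± 0.63 (SE, limma, adjusted p = 0.0137). *Cyp46a1*, the cholesterol 24-hydroxylase known from neurons, held 8.09, 65.2, 0, 0 and 0 normalized counts in hypHSC 1 to 5 and 76, 107, 49.6, 35.9 and 60.7 in qHSC 1 to 5. 3 hypHSC libraries were at 0, while hypHSC 2 reached the range of qHSCs. Its log2 fold change was -4.12 ± 1.13 (SE, limma, adjusted p = 0.0111), and with DESeq2 or edgeR on the reads it was not called, at -2.16 (DESeq2, adjusted p = 0.178) and -2.14 (edgeR, adjusted p = 0.205).

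*Cyp8b1*, the hepatocyte sterol 12α-hydroxylase that sets the share of cholic acid, held 68.7, 141, 0, 113 and 40.8 normalized counts in hypHSC 1 to 5 and 591, 120.1, 294, 1014 and 637 in qHSC 1 to 5. hypHSC 2 lay above qHSC 2, the lowest qHSC library. The log2 fold change was -3.63 ± 1.22 (SE, limma, adjusted p = 0.0289), and the call was lost without qHSC 1, qHSC 4 or qHSC 5, at adjusted p of 0.0598, 0.0658 and 0.0618 (limma). *Cyp7b1*, the oxysterol 7α-hydroxylase, ranged over 34.2 to 195 normalized counts in hypHSCs and 7.09 to 145 in qHSCs and was not called, at a log2 fold change of 1.36 ± 0.80 (SE, limma, adjusted p = 0.184). *Cyp7a1*, the rate-limiting enzyme of the classical bile acid pathway, was not tested. It was above the floor in 6 libraries and reached 53.5 in hypHSC 4, with the other hypHSC libraries at 0, and 3.94 to 37.5 in qHSCs.

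Of 6 P450s of steroid hormone synthesis, only *Cyp21a1* was tested. *Cyp21a1*, the adrenal steroid 21-hydroxylase (chromosome 17, 34938311 to 35023537), held 87.6, 37.3, 18.3, 15.7 and 18.1 normalized counts in hypHSC 1 to 5 and 205, 219, 279, 169 and 256 in qHSC 1 to 5, with no overlap and a log2 fold change of -2.94 ± 0.48 (SE, limma, adjusted p = 0.00047). The entry overlaps *Tnxb* and *C4b*, and 20.9% of its exon bases are covered by other genes. *Tnxb* itself was at 214 ± 153 and 1503 ± 265 normalized counts (SD, n = 5 libraries each) at a log2 fold change of -3.09, and without strand in the counts the reads of the overlapping genes cannot be told apart. *Cyp11a1*, *Cyp11b1*, *Cyp11b2* and *Cyp19a1* had no read in any library, which allows up to 3 reads in each. *Cyp17a1* was at 53.5 in hypHSC 4, at 0 in the other hypHSC libraries and at 0 to 8.99 in qHSCs. Of the vitamin D P450s, *Cyp2r1*, a 25-hydroxylase, held 31.5 to 69.6 and 21.3 to 54.8 normalized counts, at a log2 fold change of 0.47 ± 0.43 (SE, limma, adjusted p = 0.396). *Cyp27b1*, which makes the active hormone, reached 15.5 and *Cyp24a1*, which breaks it down, had no read. *Cyp26c1*, the retinoic acid hydroxylase kept by the rule, held 9.32 normalized counts in hypHSC 2 and no read in the other 9 libraries.

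The CYP2 family was the largest, with 48 members, of which 33 were tested, 16 fell and none rose. Against this, 21.7% of all genes fell and 17.8% rose. *Cyp2d22* (chromosome 15, 82254729 to 82264461), the mouse CYP2D that lies at the edge of the cluster on chromosome 15, held 233, 82.8, 138, 39.9 and 3.02 normalized counts in hypHSC 1 to 5 and 1419, 1654, 988, 783 and 1007 in qHSC 1 to 5. The groups did not overlap, hypHSC 5 was lowest, and the log2 fold change was -4.39 ± 0.90 (SE, limma, adjusted p = 0.00201). Of 7 members of the *Cyp2j* cluster on chromosome 4, whose enzymes epoxidise arachidonic acid, 3 were tested and 2 fell (all genes, 21.7%). *Cyp2j6* (chromosome 4, 96404375 to 96441899) held 772, 348, 334, 159 and 298 normalized counts in hypHSC 1 to 5 and 1370.3, 1457, 1011, 1226 and 1273 in qHSC 1 to 5, with no overlap and a log2 fold change of -1.90 ± 0.35 (SE, limma, adjusted p = 0.000925). *Cyp2j9* (chromosome 4, 96456666 to 96479818) held 25.6, 32.1, 34.9, 50.4 and 0 normalized counts in hypHSC 1 to 5 and 388, 384, 393, 294 and 463 in qHSC 1 to 5, again with no overlap and with hypHSC 5 at 0. Its log2 fold change was -4.45 ± 0.93 (SE, limma, adjusted p = 0.00223). *Cyp2j5*, an epoxygenase known from kidney and liver, overlapped at 47.4 to 470.4 and 75 to 453 normalized counts, at a log2 fold change of -0.38 ± 0.73 (SE, limma, adjusted p = 0.695). *Cyp2u1*, a fatty acid hydroxylase, was low but without overlap, at 0 to 25.2 against 29.1 to 53.2, with a log2 fold change of -2.86 ± 0.80 (SE, limma, adjusted p = 0.0123). With edgeR it was not called, at -2.16 (adjusted p = 0.0614).

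**Figure D3:**
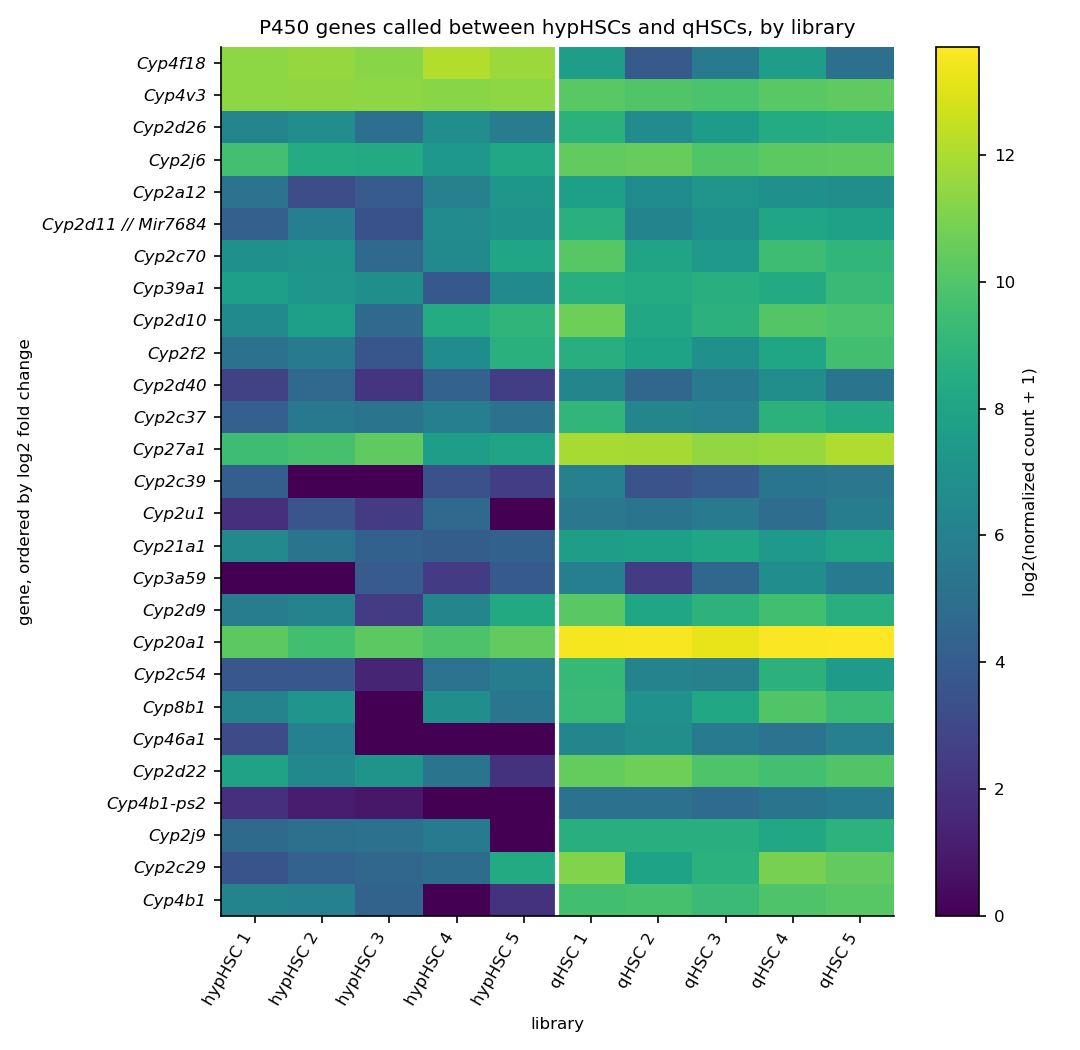
Log2(normalized count + 1) (colour) of the 27 called P450 genes (rows, ordered by log2 fold change) in the 10 libraries (columns; white line, between hypHSC 1 to 5 and qHSC 1 to 5). Rows are to be read across libraries, since values are not per length. *Cyp4f18* and *Cyp4v3* at the top are higher in every hypHSC library, and *Cyp2c29* stands out in hypHSC 5, at 328 against 10.8 to 27.3 in hypHSC 1 to 4.

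P450s that are known from hepatocytes formed a list of 20 members, of which 19 were tested, 10 fell, none rose and 9 were not called. Of all genes tested, 21.7% were called lower and 17.8% higher. The list did not hold *Cyp2c40*, *Cyp2c67*, *Cyp2c68* or *Cyp2c69*, which were not called. hypHSC 5, with the highest hepatocyte marker sum, was the highest hypHSC library for 12 of the 20, and hypHSC 3, with the lowest sum, was the lowest for 14. Among qHSCs, qHSC 2, which had the lowest sum, was the lowest for 15 of the 20. *Cyp2e1*, the ethanol-inducible P450 of central hepatocytes (chromosome 7, 140343652 to 140354903), held 6954, 7179.5, 2379, 9381 and 18947 normalized counts in hypHSC 1 to 5 and 13808, 2392, 3130.3, 13117 and 6699 in qHSC 1 to 5. All qHSC values lay within the range of hypHSCs, the highest value was that of hypHSC 5, and the log2 fold change was 0.24 ± 0.61 (SE, limma, adjusted p = 0.764). Its direction turned under scaling to the same total (-0.11), on *Hprt*, *Pgk1* and *Actb* (-0.70), and without hypHSC 5 (-0.10). *Cyp1a2*, the caffeine-metabolising P450, held 12.5 to 238 and 55.4 to 359 normalized counts, at a log2 fold change of -1.26 ± 0.78 (SE, limma, adjusted p = 0.206). The other tested CYP1 member, *Cyp1b1*, which metabolises oestrogens and polycyclic hydrocarbons, was at 3.02 to 185 and 24 to 212, at a log2 fold change of -1.09 ± 1.05 (SE, limma, adjusted p = 0.412).

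The *Cyp2c* cluster on chromosome 19 (38995463 to 40175731), whose enzymes metabolise drugs and arachidonic acid, held 14 members. Of these 11 were tested and 5 fell, where 21.7% of all genes fell. *Cyp2c29* (chromosome 19, 39275529 to 39319157) held 10.8, 18.6, 21.6, 27.3 and 328 normalized counts in hypHSC 1 to 5 and 2248, 246, 427, 1935 and 1373 in qHSC 1 to 5. hypHSC 5 was above qHSC 2 and the other hypHSC libraries were below all qHSC libraries. Its log2 fold change was -4.73 ± 0.91 (SE, limma, adjusted p = 0.00137). Per 1000 hepatocyte marker counts, *Cyp2c29* was at 0.268 to 1.41 in hypHSCs and 6.66 to 19.4 in qHSCs, without overlap. *Cyp2c54* held 1.66 to 56 against 62.2 to 577 normalized counts, without overlap, at a log2 fold change of -3.54 ± 0.90 (SE, limma, adjusted p = 0.00747). *Cyp2c37* also did not overlap, at 17.5 to 59.8 against 65.3 to 525, with a log2 fold change of -2.47 ± 0.65 (SE, limma, adjusted p = 0.00906). *Cyp2c70*, which makes muricholic acids in mice, fell, at a log2 fold change of -2.13 ± 0.67 (SE, limma, adjusted p = 0.0209), a call lost without qHSC 1 (adjusted p = 0.055, limma). *Cyp2c39* was low, at 0 to 16.2 and 10.2 to 62.5, with a log2 fold change of -2.84 ± 0.94 (SE, limma, adjusted p = 0.0273), a call lost without hypHSC 2, hypHSC 3, qHSC 1, qHSC 4 or qHSC 5 (adjusted p 0.0581 to 0.0696, limma) and with edgeR (-2.45, adjusted p = 0.0902).

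Other *Cyp2c* genes of that cluster were not called. *Cyp2c68* held 75.5, 40.4, 27.4, 445 and 1307 normalized counts in hypHSC 1 to 5 and 352, 43.5, 134, 348 and 193 in qHSC 1 to 5, and hypHSC 5 held more than any other library. Its log2 fold change was -0.29 ± 1.03 (SE, limma, adjusted p = 0.834). The same library was the highest of all for *Cyp2c67* (1233), *Cyp2c40* (656) and *Cyp2c69* (487), which had log2 fold changes of -1.15, -0.74 and -0.81. These 4 genes share 32.3% to 50.6% of their 59-base stretches with other genes, most often each other, and their separate values are uncertain. *Cyp2c50* was not called either, at a log2 fold change of -1.68 ± 0.72 (SE, limma, adjusted p = 0.0745), but was called lower without hypHSC 5 (-1.93) or without qHSC 2 (-2.16).

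The *Cyp2d* cluster on chromosome 15 (82254729 to 82678447), relatives of the human debrisoquine hydroxylase, held 10 members, all of them tested. Of these 6 fell, where 21.7% of all genes fell. *Cyp2d9*, known as a male-type steroid hydroxylase, held 55.2, 69.4, 4.16, 74.5 and 318 normalized counts in hypHSC 1 to 5 and 1188, 262, 456, 759 and 398 in qHSC 1 to 5. hypHSC 5 lay above qHSC 2, and the log2 fold change was -3.29 ± 0.90 (SE, limma, adjusted p = 0.0107). Per 1000 hepatocyte marker counts, *Cyp2d9* was at 0.272 to 1.84 in hypHSCs and 4.52 to 9.58 in qHSCs, without overlap. On this ratio every hypHSC library was below every qHSC library for 12 of the 25 lower genes, and the groups overlapped for the other 13, among them *Cyp27a1* (1.09 to 85.3 in hypHSCs and 30.5 to 111 in qHSCs), *Cyp2j6*, *Cyp2d22*, *Cyp39a1*, *Cyp21a1* and *Cyp8b1*. The 25 were picked as lower in these same data, and the ratio was not taken over all genes. The count of 12 therefore shows nothing particular to P450s. *Cyp2d26* fell, at a log2 fold change of -1.89 ± 0.49 (SE, limma, adjusted p = 0.00818) and *Cyp2d40* at -2.44 ± 0.67 (SE, limma, adjusted p = 0.0112). *Cyp2d10* fell, at a log2 fold change of -2.23 ± 0.77 (SE, limma, adjusted p = 0.0327), a call lost without hypHSC 1, hypHSC 3, qHSC 1, qHSC 4 or qHSC 5 (adjusted p 0.0512 to 0.0806, limma), with edgeR (-1.80) and with hypHSCs at 12 weeks only (-2.12). The entry of *Cyp2d11* fell, at a log2 fold change of -2.08 ± 0.75 (SE, limma, adjusted p = 0.0389), lost without the same 5 libraries (adjusted p 0.0785 to 0.0959, limma), with edgeR (-1.73), at an equal upper quartile (-1.97) and with hypHSCs at 12 weeks only (-1.83), and 30.6% of its 59-base stretches are shared with other genes, most often *Cyp2d10*. On chromosome 7, *Cyp2f2*, which bioactivates naphthalene, fell, at a log2 fold change of -2.26 ± 0.84 (SE, limma, adjusted p = 0.0429), and *Cyp2a12*, a steroid hydroxylase, at -1.93 ± 0.70 (SE, limma, adjusted p = 0.0393). Both calls were lost when any of 8 libraries was left out (any but hypHSC 5 and qHSC 3 for *Cyp2f2*, and any but hypHSC 4 and hypHSC 5 for *Cyp2a12*), at adjusted p of 0.0532 to 0.104 (limma). They were also lost with DESeq2 (-1.40 and -1.21 for *Cyp2f2* and *Cyp2a12*), edgeR (-1.43 and -1.24), scaling to an equal upper quartile (-2.16 and -1.82) and hypHSCs at 12 weeks only (-1.88 and -1.33), all as log2 fold changes.

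The CYP3 family, whose enzymes convert steroids, bile acids and a large share of drugs, held genes on both sides of 0. Of its 9 members 8 were tested, of which 1 fell and none rose, where 21.7% of all genes fell and 17.8% rose. The median log2 fold change was 0.87, with 3 of the 8 below 0, but it was -0.07 without qHSC 2 (6 of 8 below 0), 0.097 without hypHSC 5 and -0.55 without hypHSC 4 and hypHSC 5 (7 of 8 below 0). *Cyp3a11*, the main hepatocyte CYP3A of the mouse (chromosome 5, 145791236 to 145816675), held 745, 1294, 237, 3669.8 and 13879 normalized counts in hypHSC 1 to 5 and 1454, 40.9, 1791, 1705 and 1822 in qHSC 1 to 5. hypHSC 5 was far above all other libraries and qHSC 2 far below the other qHSC libraries. The log2 fold change was 1.02 ± 1.24 (SE, limma, adjusted p = 0.522), and without qHSC 2 it was -0.04. hypHSC 5 was the highest hypHSC library for 6 of the 8 tested CYP3 genes, and qHSC 2 was the lowest qHSC library for all 8. *Cyp3a44* reached 632 in hypHSC 5 against 9.98 to 143 in the other hypHSC libraries, at a log2 fold change of 0.96 ± 1.30 (SE, limma, adjusted p = 0.569). *Cyp3a41a* reached 844 against 13.3 to 207, at a log2 fold change of 0.85 ± 1.18 (SE, limma, adjusted p = 0.581). *Cyp3a41a* shares 98.1% and *Cyp3a41b* 92.6% of their 59-base stretches with other genes, most often each other, and the reads of the pair cannot be told apart. *Cyp3a25* had a log2 fold change of -2.17 ± 0.97 (SE, limma, adjusted p = 0.0866) and was not called, except without hypHSC 5 (-2.67) or without qHSC 2 (-2.83). *Cyp3a59* fell, at a log2 fold change of -3.01 ± 1.07 (SE, limma, adjusted p = 0.0366) with 0 to 14.1 and 4.26 to 104 normalized counts. Its call was lost without hypHSC 1, 2 or 4 or without qHSC 1, 3, 4 or 5 (adjusted p 0.0557 to 0.089, limma), with edgeR (-2.79, adjusted p = 0.0707) and with hypHSCs at 12 weeks only (-1.65, adjusted p = 0.19, limma).

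With the log2 hepatocyte marker sum of each library as a covariate, chosen after the data had been seen, all 27 calls were kept and 9 members were added. *Cyp3a11*, *Cyp3a16* and *Cyp3a41a* were then called higher, together with *Cyp4f39*, and *Cyp2c50*, *Cyp2d13*, *Cyp2t4*, *Cyp3a25* and *Cyp4a12a* lower. Over all genes tested, 2811 were called higher and 3988 lower with the covariate, against 2602 and 3177 without it. Without hypHSC 4 and hypHSC 5, also chosen afterwards, all 27 calls were kept and 13 were added. Over all genes tested, 2786 were called higher and 3130 lower in that fit. Per 1000 hepatocyte marker counts, *Cyp2e1* was at 80.6 to 190.1 in hypHSCs and 48.9 to 131 in qHSCs and *Cyp3a11* at 15.5 to 59 in hypHSCs and 1.21 to 28 in qHSCs, both with overlap. The part of hepatocyte RNA in these differences was not tested further.

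**Figure D4:**
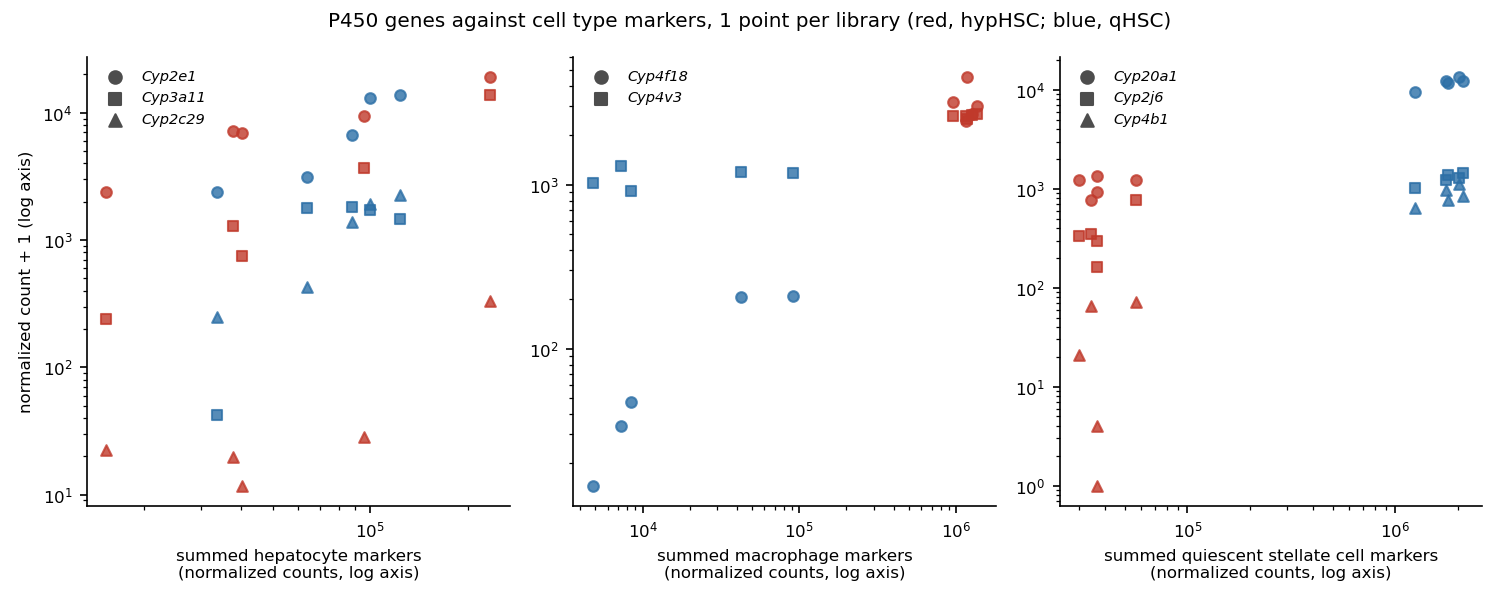
Normalized counts + 1 of P450 genes (y axis, log scale) against summed normalized counts of cell type markers (x axis, log scale), 1 point per library (red, hypHSC; blue, qHSC). In the left panel the qHSC values of *Cyp2e1* (2392 to 13808) lie within those of hypHSCs (2379 to 18947) while *Cyp2c29* is lower in hypHSCs; in the middle panel the qHSC libraries with the most macrophage counts (42601 and 91872) are those with the most *Cyp4f18* (206 and 207); in the right panel the groups lie apart for *Cyp20a1*, *Cyp2j6* and *Cyp4b1*.

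Of the 31 members that were not tested, 13 never rose above the floor and 18 did so in at least 1 library. *Cyp2b10*, the classical target of the constitutive androstane receptor, was at 13.6 in qHSC 1, 49.5 in qHSC 5 and 0 in the other 8 libraries. *Cyp1a1*, the classical target of the aryl hydrocarbon receptor, reached 10.9 in qHSC 1 and was at or under the floor elsewhere. *Cyp2b13*, *Cyp2b19*, *Cyp2b23*, *Cyp2g1*, *Cyp4a29* and *Cyp4a30b* had no read. At this depth, levels below the floor could not be detected in these members.

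Genes that work with the P450s were taken from 8 lists of 57 genes, of which 52 were tested, 12 rose (23.1%, against 17.8% of all genes) and 9 fell (17.3%, against 21.7%), shares near those of all genes. Scaled to the same total, 11 rose and 14 fell, and on *Hprt*, *Pgk1* and *Actb* 10 rose and 23 fell. Of all 14630 genes tested, 3177 fell in the reported fit, 4225 at the same total and 6990 on *Hprt*, *Pgk1* and *Actb*. Among the electron donors, *Por* held 3600.5, 5560.3, 5047, 1907 and 443 normalized counts in hypHSC 1 to 5 and 3276, 3904, 2144, 2023 and 2566 in qHSC 1 to 5. hypHSC 5 was lowest, the groups overlapped, and the log2 fold change was -0.15 ± 0.60 (SE, limma, adjusted p = 0.855), with the direction turned by DESeq2 (0.29) and without hypHSC 5 (0.47). *Cyb5a*, cytochrome b5, which passes electrons to microsomal P450s, rose, at a log2 fold change of 1.32 ± 0.24 (SE, limma, adjusted p = 0.00105), and *Cyb5r4*, a b5 reductase, at 2.22 ± 0.39 (SE, limma, adjusted p = 0.000803). The call of *Cyb5a* was lost with scaling to an equal total (0.96) or on *Hprt*, *Pgk1* and *Actb* (0.38) and without hypHSC 4 and hypHSC 5 (0.97), all as log2 fold changes. The mitochondrial ferredoxin *Fdx1* was at -1.61 ± 0.73 (SE, limma, adjusted p = 0.0905) and its reductase *Fdxr* at -0.16 ± 0.54 (SE, limma, adjusted p = 0.82), neither called. Without hypHSC 5, *Fdx1* was called lower, at -2.16. Of 11 tested donors 2 rose (18.2%, against 17.8% of all genes) and none fell.

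Haem, the cofactor of P450s, is made from glycine and succinyl-CoA and broken down by haem oxygenase. *Alas1*, the rate-limiting enzyme of its synthesis, held 13520, 22088, 22132, 15498 and 5083 normalized counts in hypHSC 1 to 5 and 1775, 1981, 1457, 1942 and 1544 in qHSC 1 to 5, higher in every hypHSC library, at a log2 fold change of 3.01 ± 0.36 (SE, limma, adjusted p = 4.69e-05). *Alad*, the next enzyme, fell, at a log2 fold change of -1.60 ± 0.21 (SE, limma, adjusted p = 0.000109) and *Fech*, which inserts the iron, at -1.88 ± 0.22 (SE, limma, adjusted p = 4.51e-05). The other 5 listed genes of synthesis, all tested, were not called. Of these, *Urod* was lower in every hypHSC library but missed the fold threshold, at -0.94 ± 0.24 (SE, limma, adjusted p = 0.00826). *Ppox* was at -2.07 ± 0.85 (SE, limma, adjusted p = 0.0656). Scaled to the same total, both were called lower (-1.29 and -2.42). Of 8 tested genes of synthesis 1 rose (12.5%, against 17.8% of all genes) and 2 fell (25%, against 21.7%). On the side of breakdown, *Hmox1*, haem oxygenase 1, held 12689, 15060, 12907, 8889 and 5714 normalized counts in hypHSC 1 to 5 and 787, 236, 279, 1322 and 296 in qHSC 1 to 5. Every hypHSC library was above every qHSC library, and qHSC 1 and qHSC 4 were the highest qHSC libraries. It rose, at a log2 fold change of 4.51 ± 0.48 (SE, limma, adjusted p = 2.16e-05), with the biliverdin reductases *Blvra* at 2.20 ± 0.27 (SE, limma, adjusted p = 6.12e-05) and *Blvrb* at 2.95 ± 0.20 (SE, limma, adjusted p = 9.77e-07). *Hmox2* was not called, at -0.33 ± 0.21 (SE, limma, adjusted p = 0.217).

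Among nuclear receptors that drive P450 genes, 12 were tested, 3 rose and 3 fell (25% each, near the 17.8% and 21.7% of all genes). *Nr1h4*, the bile acid receptor FXR, held 313, 219, 160.5, 277 and 109 normalized counts in hypHSC 1 to 5 and 7818, 8478, 6789, 6785 and 7359 in qHSC 1 to 5. The groups were far apart, at a log2 fold change of -5.19 ± 0.27 (SE, limma, adjusted p = 1.55e-07). *Rxra*, the partner of several but not all of these receptors, fell, at a log2 fold change of -1.77 ± 0.41 (SE, limma, adjusted p = 0.00409) and *Ppara*, which drives *Cyp4a* genes, at -2.04 ± 0.62 (SE, limma, adjusted p = 0.018), a call lost without qHSC 1 (adjusted p = 0.0506, limma), with edgeR (-1.72, adjusted p = 0.0647) and with hypHSCs at 12 weeks only (-1.81, adjusted p = 0.0696, limma). *Nr1h3*, the oxysterol receptor LXRα, rose, at a log2 fold change of 2.33 ± 0.43 (SE, limma, adjusted p = 0.000975), *Nr5a2* at 3.51 ± 0.80 (SE, limma, adjusted p = 0.00403) and *Vdr*, the vitamin D receptor, at 3.90 ± 0.87 (SE, limma, adjusted p = 0.0034). *Nr5a2* and *Vdr* were low. *Nr5a2* held 38.8 to 132 normalized counts in hypHSCs and 0 to 19.0 in qHSCs. *Vdr* held 9.43 to 59.0 in hypHSCs and 0 to 12.6 in qHSCs, with overlap. The receptors of drug induction, *Nr1i2* (PXR) and *Nr1i3* (CAR), were not called, at 0.25 ± 1.05 (SE, limma, adjusted p = 0.862) and -1.79 ± 1.07 (SE, limma, adjusted p = 0.191). In the aryl hydrocarbon receptor pathway, *Arnt*, the dimer partner, fell, at a log2 fold change of -1.43 ± 0.36 (SE, limma, adjusted p = 0.00695) and *Ahr* was not called, at -0.31 ± 0.49 (SE, limma, adjusted p = 0.627). *Ephx1*, the microsomal epoxide hydrolase that acts on P450 products, fell, at a log2 fold change of -3.30 ± 0.21 (SE, limma, adjusted p = 6.4e-07).

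P450s whose symbols do not follow the *Cyp* form of the rule behaved in different ways. *Tbxas1*, thromboxane synthase, held 2219, 3111, 3091, 2774 and 903 normalized counts in hypHSC 1 to 5 and 118, 5.11, 13.4, 244 and 23.2 in qHSC 1 to 5. Every hypHSC library was above every qHSC library, qHSC 1 and qHSC 4 were highest among qHSCs, as for *Cyp4f18*, and the log2 fold change was 5.94 ± 0.89 (SE, limma, adjusted p = 0.000252). *Ptgis*, prostacyclin synthase, fell, at a log2 fold change of -3.05 ± 0.67 (SE, limma, adjusted p = 0.00299), and *Cyp51*, the lanosterol demethylase of cholesterol synthesis, rose, at a log2 fold change of 1.77 ± 0.27 (SE, limma, adjusted p = 0.00026), which was 0.84 and no longer called on *Hprt*, *Pgk1* and *Actb*. *Ch25h*, a cholesterol 25-hydroxylase that is no P450, rose, at a log2 fold change of 4.03 ± 0.66 (SE, limma, adjusted p = 0.000438), and *Star*, which brings cholesterol into mitochondria, fell, at a log2 fold change of -1.84 ± 0.58 (SE, limma, adjusted p = 0.0227), a call lost without qHSC 2 or qHSC 5 (adjusted p = 0.0521 and 0.0532, limma) and with edgeR (-1.51, adjusted p = 0.0703).

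**Figure D5:**
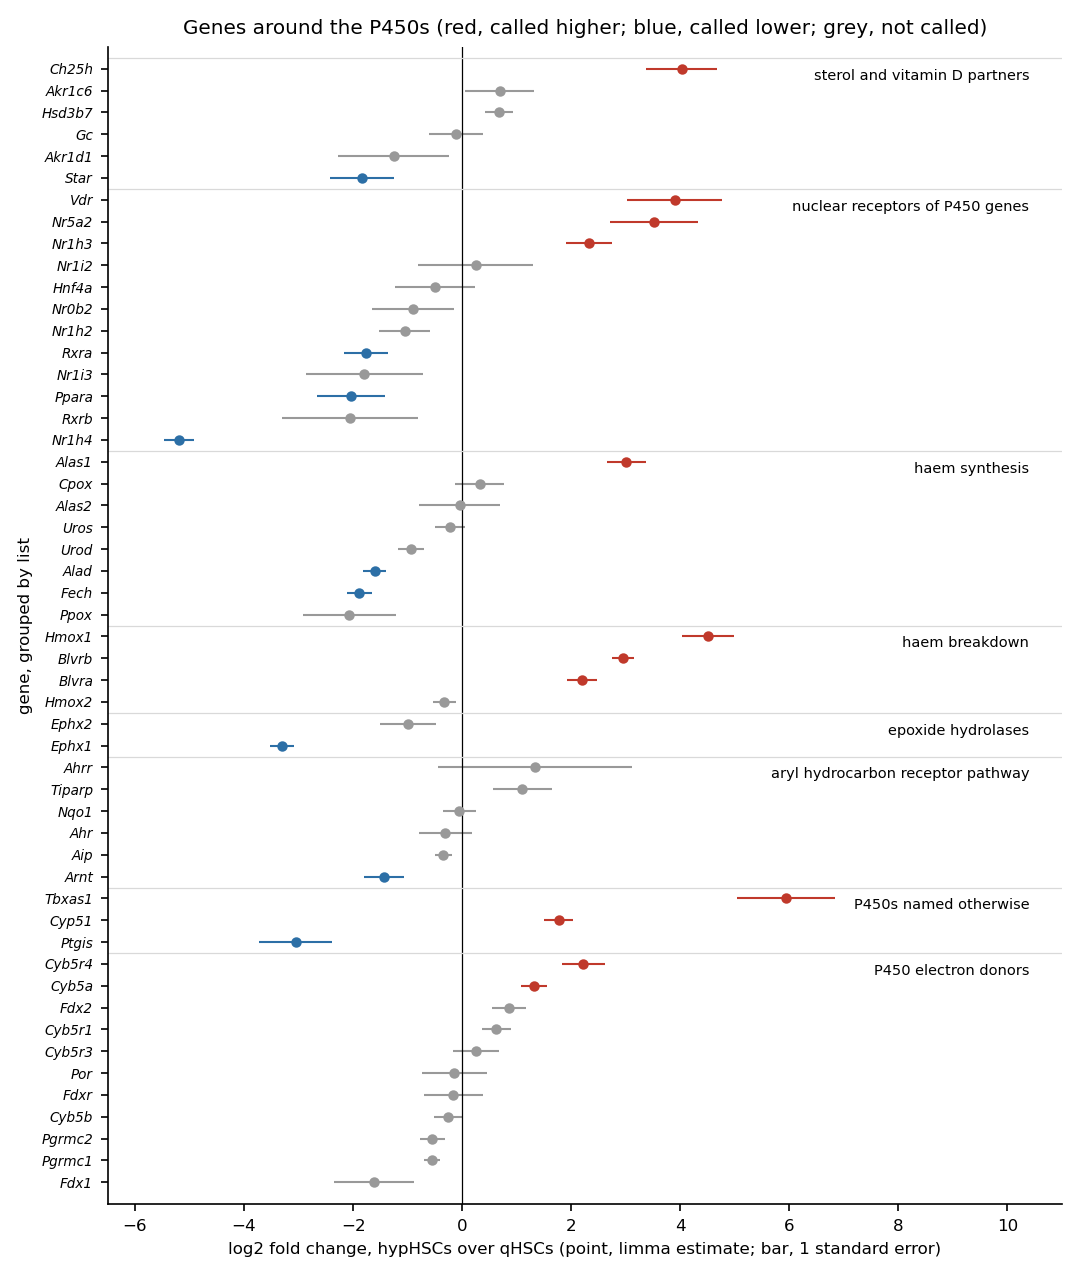
Log2 fold change (x axis, hypHSCs over qHSCs; point, limma estimate; bar, 1 SE) of the 52 tested genes that work with P450s (y axis), grouped by list. The 12 genes called higher (red) include *Alas1*, *Hmox1*, *Blvra*, *Blvrb* and *Tbxas1*, and the 9 called lower (blue) include *Nr1h4*, *Ephx1*, *Fech* and *Alad*.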

How the data were processed

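Sorted hypHSCs and qHSCs were profiled by RNA sequencing from 2.5 ng of RNA, reverse-transcribed with oligo(dT), amplified and sequenced in pairs of 59 bases without strand. The submitters' processing notes name FastQC 0.11.2, Picard 1.119, SAMtools 1.0, STAR, featureCounts (Subread 1.5.0) and DESeq2, with the mm39 (GRCm39) build. In the deposited table the signal of each gene is its read count divided by the authors by a DESeq2 size factor for the library. All values became whole reads, to within 0.01 normalized counts, once multiplied by the recovered factor (0.661 to 1.20 in hypHSCs and 1.10 to 1.33 in qHSCs). Entries without a symbol (37089) held 8.98% to 29.1% of the reads of a library and stayed out of the tests.

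Values were compared as log2(normalized count + 1) with limma 3.58.1 (lmFit and eBayes with trend) in R 4.3.3, for genes that held 10 or more normalized counts in 5 or more libraries. Calls needed an adjusted p of 0.05 or less and a log2 fold change of 1 or more in size. FPKM used recovered reads, the summed exon length in GENCODE vM39 and reads on genes with a symbol. Shared stretches of 59 bases and overlapping exons came from the same annotation. Alternatives changed the pseudocount, filter, scaling, test (DESeq2 1.42.0 and edgeR 4.0.16 on recovered reads), samples and covariates. The inclusion of entries without a symbol, the fit without hypHSC 4 and hypHSC 5 and the hepatocyte covariate were chosen after seeing the data. The steps were tested on simulated data. Named genes were the called members, uncalled members whose mean reached 100 normalized counts, and partner genes by the same limits. *Cyp4f39*, *Cyp7b1*, *Cyp1b1*, *Cyp2r1*, *Cyp2d13*, *Cyp2t4*, *Cyp3a16*, *Cyp3a41b*, *Nr1i2*, *Nr1i3*, *Ahr* and the untested members fall outside this rule and were named after their values had been seen. 2 genes of these lists are not reported here and were left out of their sums and counts. The members and lists were chosen with earlier results of these data known.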

Additional observations from a re-analysis of the deposited data

Results flagged for a closer look

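In groups of 5 libraries, a library was singled out when its gap to the nearest other library exceeded 0.71 of the group's range. Among 180 groups (90 named genes in 2 groups), 22 libraries met this, 17 of them for P450 genes. A rate of about 1 in 20 by chance holds only for independent, normally distributed values. The rule was applied to normalized counts without logs, and genes vary together, so the 22 cannot be set against that rate. Of the 17 for P450 genes, 12 concerned hypHSC 5, the library with the highest hepatocyte marker sum (235149 normalized counts). Its values, in normalized counts, were 13879 for *Cyp3a11* (other hypHSC libraries 237 to 3670), 1233 for *Cyp2c67* (18.3 to 204), 844 for *Cyp3a41a* (13.3 to 207), 656 for *Cyp2c40* (15 to 158), 632 for *Cyp3a44* (9.98 to 143), 487 for *Cyp2c69* (11.6 to 108), 422 for *Cyp2f2* (11.6 to 101), 420.5 for *Cyp4f17* (169.8 to 223), 328 for *Cyp2c29* (10.8 to 27.3), 318 for *Cyp4a12a* (8.32 to 78.7) and 318 for *Cyp2d9* (4.16 to 74.5). In the opposite direction, *Cyp4f16* was at 349 in hypHSC 5 against 1091 to 1373.

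Elsewhere, *Cyp46a1* was at 65.2 in hypHSC 2 (others 0 to 8.09). Among qHSCs, *Cyp3a11* was at 40.9 in qHSC 2 (others 1454 to 1822), *Cyp4f37* at 263 in qHSC 1 (179 to 192), and *Cyp39a1* at 593 (326 to 382) and *Cyp4f13* at 1206 (526 to 659) in qHSC 5. Of the genes that work with P450s, *Tiparp* was at 4534 (others 691 to 1691) and *Ppara* at 49.9 (5.82 to 13.5) in hypHSC 5, *Ppox* at 1114 in qHSC 5 (1411 to 1460), and *Vdr* at 12.6 (0 to 0.91) and *Ch25h* at 168 (7.70 to 38.2) in qHSC 3.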

How the results depend on the processing

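The 2 higher and 25 lower P450 calls became 1 and 32 with libraries scaled to the same total, 1 and 39 when scaled on *Hprt*, *Pgk1* and *Actb*, 4 and 36 without hypHSC 4 and hypHSC 5, and 6 and 30 with the hepatocyte markers as a covariate. The 12 higher and 9 lower partner genes became 11 and 14 at the same total and 10 and 23 on *Hprt*, *Pgk1* and *Actb*. Leaving out 1 library gave 2 to 3 higher and 17 to 32 lower P450s, and 12 to 13 higher and 8 to 12 lower partner genes. DESeq2 called 26 P450s (24 shared with the 27) and edgeR 20 (19 shared), hypHSCs at 12 weeks gave 23 (22 shared), and a filter at a mean of 100 normalized counts, which tested fewer genes, gave 20. The pseudocounts of 0.5 and 4, the lack of a filter, TMM scaling and the inclusion of entries without a symbol kept all 27. Replicate numbers did not pair the libraries, as deviations of same-numbered libraries correlated at r = 0.0082 to 0.129 and only replicate 5 matched its own number best. With the replicate block, 30 P450s were called, among them all 27, with *Cyp2c50*, *Cyp4a12a* and *Cyp4f39* added.

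Genes that changed direction were not called in the reported fit (log2 fold changes in parentheses). With hypHSCs at 12 weeks only, those turned were *Cyp4f17* (0.053), *Cyp4f16* (-0.13), *Cyp2c68* (0.58), *Cyb5r3* (-0.088). With libraries scaled to the same total, those turned were *Cyp4f16* (-0.23), *Cyp2e1* (-0.11), *Cyb5r3* (-0.10), *Cpox* (-0.034). On *Hprt*, *Pgk1* and *Actb*, those turned were *Cyp4f16* (-0.81), *Cyp3a41a* (-0.051), *Cyp2e1* (-0.70), *Cyp4a10* (-0.18), *Cyb5r1* (-0.31), *Cyb5r3* (-0.68), *Fdx2* (-0.0704), *Cpox* (-0.61), *Hsd3b7* (-0.26), *Akr1c6* (-0.25). With the hepatocyte covariate, those turned were *Cyp4f16* (-0.023), *Cyp2c68* (0.39), *Cyp2j5* (0.032), *Cyp4a32* (0.26), *Gc* (0.19). At the same upper quartile, those turned were *Cyp4f37* (0.10), *Nqo1* (0.056), *Gc* (0.0049). Under TMM scaling, those turned were *Cyp4f37* (0.029). DESeq2 turned *Cyp4f37* (0.19), *Cyp4f13* (0.14), *Cyp2c68* (0.95), *Cyp2c40* (0.31), *Cyp2c69* (0.15), *Cyp4a10* (-0.24), *Por* (0.29), *Fdxr* (0.16), *Nqo1* (0.079), *Gc* (0.037). edgeR turned *Cyp4f37* (0.19), *Cyp4f13* (0.15), *Cyp2c68* (0.91), *Cyp2c40* (0.27), *Cyp2c69* (0.11), *Cyp4a10* (-0.27), *Por* (0.30), *Fdxr* (0.17), *Nqo1* (0.079), *Gc* (0.0198). Without hypHSC 4 and hypHSC 5, those turned were *Cyp4f37* (0.49), *Cyp4f13* (0.16), *Cyp3a41a* (-0.60), *Cyp3a44* (-0.50), *Cyp3a11* (-0.40), *Cyp2e1* (-0.33), *Cyp4a10* (-0.26), *Por* (0.79), *Cyb5b* (0.16), *Fdxr* (0.52), *Uros* (0.098), *Nqo1* (0.18), *Akr1c6* (-0.087). When single libraries were left out, ranges that crossed 0 were those of *Cyp4f16* (-0.0024 to 0.49), *Cyp4f37* (-0.17 to 0.36), *Cyp4f13* (-0.38 to 0.35), *Cyp2c68* (-1.10 to 0.28), *Cyp2j5* (-0.79 to 0.034), *Cyp3a41a* (-0.044 to 1.52), *Cyp3a44* (-0.095 to 1.60), *Cyp3a11* (-0.045 to 1.72), *Cyp2e1* (-0.1 to 0.65), *Cyp4a32* (-1.41 to 0.16), *Cyp4a10* (-1.07 to 1.26), *Por* (-0.44 to 0.47), *Fdxr* (-0.39 to 0.35), *Nqo1* (-0.17 to 0.18), *Gc* (-0.37 to 0.31). The causes were not tested. Depth limits the members at or under the floor of 3 reads, for which no change could be measured.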

Other observations

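Some members were seen in few libraries, outside the tests. *Cyp17a1*, the androgen-forming steroid hydroxylase, and *Cyp7a1* each stood at 53.5 normalized counts in hypHSC 4, with 0 in the other hypHSC libraries. *Cyp2b9*, a CYP2B known for higher expression in female liver, was at 98.3 in hypHSC 5 and 14.5 in qHSC 1, and at most 3 in the other libraries. *Cyp2w1*, a P450 known from fetal gut and tumours, was at 24.9 in hypHSC 2 and had no read elsewhere. *Cyp2c55* was at 56.7 in hypHSC 4, 43.5 in qHSC 2 and 27.0 in qHSC 5, and at 0 in the other 7 libraries. In all, 5 members were above the floor in 1 library only.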
